A study of Drosophila melanogaster with 2 samples.

Results

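The genes described here are Dref, M1BP, pzg, Chro, Trf2 and Trl of Drosophila melanogaster, 6 of 13945 annotated protein-coding genes. They were taken by name, because they encode DREF, M1BP, Putzig, Chromator and TRF2, factors of housekeeping promoters, and GAGA factor, which acts at many regulated ones. The data are peak lists of chromatin immunoprecipitation sequencing (ChIP-seq) on whole embryos of 0 to 18 hours. By their labels, the flies were transgenic for an amos-eGFP fusion, which was recovered with an antibody to GFP; the antibody field itself reads amos. The Amos protein, a proneural transcription factor of the basic helix-loop-helix class, binds E-boxes. There is 1 group with 2 biological replicates, and no control library was analysed here. Whole embryos mix many cell types, the labels do not say which promoter drove the fusion, and a peak list holds no expression by which to check the tissue. The measurement is therefore where the tagged protein was recovered at these 6 genes, not where the 6 encoded proteins bind.

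Housekeeping promoters of the fly usually lack a TATA box. DREF, a zinc-finger protein, binds the DNA replication-related element (DRE) in many of them and recruits TRF2, a relative of the TATA-binding protein. M1BP binds another core promoter element, motif 1. Putzig is a zinc-finger protein found in the DREF and TRF2 complex and with the nucleosome remodeller NURF, and Chromator is a chromodomain protein of open interband chromatin. GAGA factor, the product of Trl, binds GA repeats and keeps promoters of heat shock and homeotic genes open. BEAF-32, an insulator protein, recognises a short sequence that overlaps the DRE.

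The sequences that the results turn on are the start-site regions of Dref, Chro, Trf2 and Trl, read from the Release 6 (dm6) reference genome on the strand of the gene, 5′ to 3′. They are shown because they hold the BEAF-32 sites and GAGA pentamers that the results below refer to. Capitals mark those matches, to CGATAG or its reverse complement CTATCG in Dref and Chro, and to GAGAG or its reverse complement CTCTC in the others. The first is the whole stretch between the divergent starts of Dref and its neighbour RpL13, at chr2L:9967230-9967312, minus strand, with the Dref start just after its last base.
Dref to RpL13: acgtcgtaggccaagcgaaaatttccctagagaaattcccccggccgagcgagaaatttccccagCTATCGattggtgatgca
The second is a site in the 5′ UTR of Chro at chr3L:22878884-22878905, minus strand, close to the Chro summit.
Chro site: gtttaaagCTATCGacaggcaa
The third is a site in the 5′ UTR of Trf2 at chrX:8409319-8409339, plus strand, close to the Trf2 summit.
Trf2 site: gacttgtgCTCTCaaaatttt
The last pair are the 100 bases before the downstream start of Trf2, at chrX:8421265-8421364, plus strand, and before the most downstream start of Trl, at chr3L:14757337-14757436, minus strand, neither of which had a summit within 500 bp in any thresholded list.
Trf2 downstream start: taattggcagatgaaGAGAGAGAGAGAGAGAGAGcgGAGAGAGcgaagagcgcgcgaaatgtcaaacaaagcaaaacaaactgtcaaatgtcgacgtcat
Trl downstream start: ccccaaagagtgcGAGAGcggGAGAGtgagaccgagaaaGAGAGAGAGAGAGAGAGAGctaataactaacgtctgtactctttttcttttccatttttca

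The authors deposited 4 thresholded peak lists, each holding regions with a global irreproducible discovery rate (IDR) of 0.01 or less. The pooled list (5860 peaks) and the conservative list (3116 peaks) come from the reads of both replicates, and replicates 1 and 2 have lists of 6214 and 2973 peaks. Signal is the authors' peak strength, scaled within each set of reads, so it is given with its rank or percentile inside a list and is not compared between lists. Percentile 100 is the strongest peak. The lists hold no counts, so the read depth is unknown and no interval on a single value can be given. In the pooled list 4352 peaks (74.3%) had their summit, the position of highest signal, no more than 500 bp from where transcription of a protein-coding gene starts (TSS); such peaks are called promoter peaks below.

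A summit within 500 bp of an own TSS was found for 4 of the 6 genes in the pooled list (Dref, pzg, Trf2 and Chro), where 37.3% of all protein-coding genes had one. The replicate 1 list held such a summit for 4 of the 6 (Dref, pzg, Trf2 and Trl), against 39.6% of all genes. Dref was the only member in the conservative list (1 of 6, against 23.8%), in the replicate 2 list (1 of 6, against 20.6%) and in both replicate lists at once (1 of 6, against 19.4%). M1BP had a summit near its TSS in none of these lists. In the pooled list and in replicate 1 the members' share was above that of all genes, and in the conservative and replicate 2 lists it was below; with 6 genes, each gene moves the share by more than the gap in the latter lists. No test was run.

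**Figure D1:**
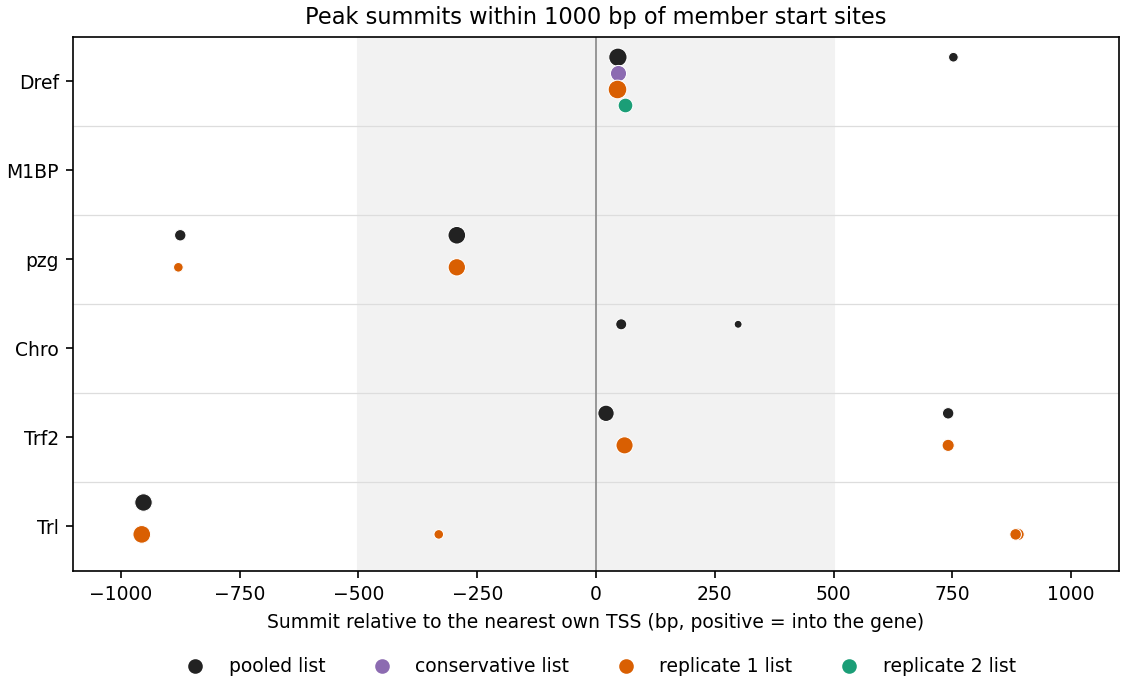
Position of every thresholded peak summit within 1000 bp of an annotated start of the 6 genes, in bp along the gene from the nearest own TSS, by list (colour); the point area grows with the signal percentile in that list and the grey band is the 500 bp window. The Dref summits of all 4 lists sit between +45 and +61, whereas pzg and Trf2 have points from the pooled and replicate 1 lists only and M1BP has none.

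Dref (FBgn0015664, chr2L:9964147-9967229, minus strand) has 1 annotated TSS. Its pooled peak, chr2L:9967129-9967306, is 178 bp wide with a summit 46 bp into the gene, in the 5′ UTR, and has a signal of 264, which ranks it 1613 of 5860 (percentile 72.5). The same interval ranked 1458 of 3116 in the conservative list (percentile 53.2). In replicate 1 the summit lay at +45, with a signal of 179 and percentile 75.9 (rank 1501 of 6214). In replicate 2 it lay at +61, with a signal of 83.0 and percentile 42.5 (rank 1710 of 2973). The summits of the 2 replicates were thus 16 bp apart and on the same side of the TSS. The deposited q values were 0.000301 in the pooled list, 0.000173 in replicate 1 and 0.000839 in replicate 2. RpL13, a gene for a protein of the large ribosomal subunit, starts on the other strand 84 bp from the Dref TSS and shares the peak, whose pooled summit is 130 bp from the RpL13 TSS. The peak therefore cannot be given to Dref alone.

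A weaker pooled peak in a coding exon of Dref, with its summit at +752, had a signal of 52.2 (percentile 10.6) and a q value of 0.212. By likeness of signal percentile in the replicate lists, over the 2701 genes with a promoter summit in both, the nearest genes to Dref were RpL13, through the shared peak, and Polr3A, a gene for the largest subunit of RNA polymerase III. Polr3A stood at percentile 75.3 in replicate 1 and 42.7 in replicate 2, a summed difference of 0.683 percentile points from Dref.

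The pzg gene (FBgn0259785, chr3L:21286099-21290310, plus strand) has 1 TSS, with CG12974 starting 137 bp away on the other strand. The pooled summit lay 293 bp before the pzg TSS, inside an intron of CG12974 and 156 bp from the start of that gene. This peak, chr3L:21285698-21285878, had a signal of 207 (rank 1964, percentile 66.5) and a q value of 0.00123. In replicate 1 the summit fell on the same base, with a signal of 110 (rank 2247, percentile 63.9) and a q value of 0.000173. Neither the conservative list nor replicate 2 had a summit there. The summit is closer to the TSS of CG12974 than to that of pzg. A weaker summit at −875 in the pooled list (signal 63.1, percentile 20.1) and at −879 in replicate 1 (signal 37.0, percentile 10.5) lay in the 5′ UTR of CG12974.

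Trf2 (FBgn0261793, chrX:8409272-8433011, plus strand) has annotated starts at 8409272 and 8421365. The pooled peak chrX:8409113-8409472 had its summit 21 bp inside the upstream start, a signal of 139.5 (rank 2628, percentile 55.2) and a q value of 0.00129. In replicate 1 the summit was at +60, with a signal of 104 (rank 2360, percentile 62.0) and a q value of 0.000173. Replicate 2 and the conservative list had none, and no list had a summit at the downstream start. The pooled summit lies in the 5′ UTR of Trf2 and in the 3′ UTR of lawc, which is transcribed the other way from a start inside Trf2. A further peak at +741, which was 85 bp from the lawc TSS, had a pooled signal of 63.2 (percentile 20.1) and a replicate 1 signal of 47.9 (percentile 24.5).

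Chro (FBgn0044324, chr3L:22873702-22878984, minus strand) has 3 annotated starts and a divergent neighbour, Ssl1, which starts 105 bp from the most upstream of them. Its summit was in the pooled list alone, at +53 in the 5′ UTR and 158 bp from the Ssl1 TSS. That peak, chr3L:22878751-22879110, had a signal of 60.7 (rank 4800, percentile 18.1) and a q value of 0.0936. It also covers the Ssl1 TSS, so the peak cannot be given to Chro alone. Among the 4 members in the pooled list, Chro had the weakest promoter peak. A second pooled summit in an intron of Chro, 299 bp past the start at 22878184, had a signal of 24.5 (rank 5696) and a q value of 0.887.

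Trl (FBgn0013263, chr3L:14747929-14761049, minus strand) has 4 annotated starts, and its promoter summit was in the replicate 1 list alone. It lay 331 bp before the start at 14757962, which is shared by 7 of its annotated transcripts. CG42507, on the same strand, starts at that same base, so the peak cannot be given to Trl alone. The signal was 36.8 (rank 5576 of 6214, percentile 10.3) and the q value 0.0156. The strongest pooled peak near Trl, with a signal of 190 (percentile 64.6), was 954 bp before the most upstream start, outside the 500 bp window. Its summit was intergenic and 25 bp from the TSS of Mgat4a, a neighbouring gene. In replicate 1 that summit was at −956, with a signal of 121 (percentile 66.7). Replicate 1 also had summits in Trl introns at +888 (signal 49.2) and +883 (signal 45.1), measured from different starts.

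M1BP (FBgn0037621, chr3R:8729790-8731698, minus strand) has 1 TSS, 393 bp from that of its divergent neighbour CG8202. The thresholded summit nearest to it was 15783 bp away in the pooled list, 16047 bp in the conservative list, 15825 bp in replicate 1 and 16010 bp in replicate 2. M1BP was the member farthest from a summit in the pooled and replicate 1 lists. In the conservative list pzg (23408 bp) and Trl (25704 bp) were farther, and in replicate 2 pzg (31943 bp), Trf2 (31020 bp) and Trl (25692 bp) were.

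**Figure D2:**
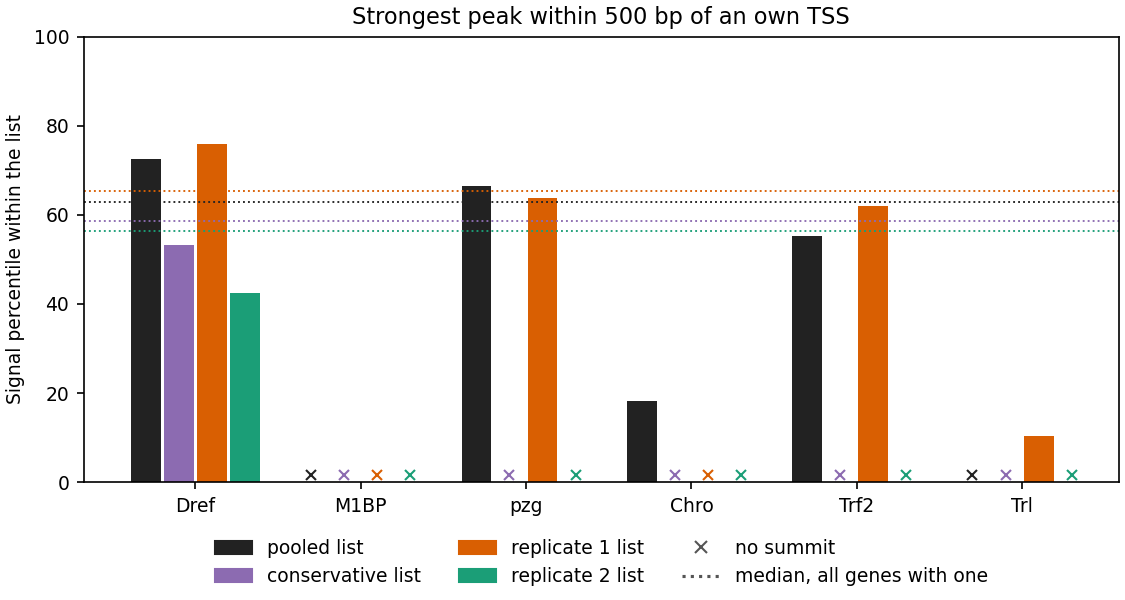
Signal percentile, within each list, of the strongest peak with a summit within 500 bp of an own TSS (bars, coloured by list); a cross marks a gene with no such summit, and dotted lines give the median over all protein-coding genes that have one. Dref reaches 72.5 in the pooled list and 42.5 in replicate 2, while Chro (18.1, pooled) and Trl (10.3, replicate 1) stand far under the medians of 62.8 and 65.3.

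The 4 pooled peaks had a median percentile of 60.8, and the 5208 genes with a promoter summit in that list had a median of 62.8. In replicate 1 the members' median was 62.9 and that of the 5520 genes was 65.3. In replicate 2 Dref stood at 42.5, and the median over 2874 genes was 56.3. The members' medians were thus close to those of all genes in the pooled and replicate 1 lists. Dref was above the median gene in the pooled list and in replicate 1. It was below the median gene in the conservative list (53.2 against 58.6) and in replicate 2. In the pooled list pzg (66.5) was also above the median gene, and Trf2 (55.2) and Chro (18.1) were below it. Summits of the 4 members lay at a median of 49.5 bp from the TSS, and those of all genes in the pooled list at 54 bp. Dref, Trf2 and Chro had their summits 21 to 53 bp inside the gene, and pzg was the exception at −293.

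Whether a member recurred in replicate 2 can be set beside genes of like strength in replicate 1. Of the 5520 genes with a promoter summit in replicate 1, 48.9% also had one in replicate 2, and the share was higher in the upper deciles of signal. In the eighth decile of replicate 1 signal, where Dref lay, 67.7% of 739 genes recurred. In the seventh, which held pzg and Trf2, 41.5% of 643 genes recurred. In the second, which held Trl, 4.92% of 325 genes did. Absence from the thresholded list of replicate 2 was therefore common among genes with peaks as strong as those of pzg and Trf2, and it was the rule for peaks as weak as that of Trl. These shares do not cover absence from the regions before the threshold, and why these members were absent was not tested. The list of replicate 2 is also shorter, and its depth relative to replicate 1 is unknown.

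**Figure D3:**
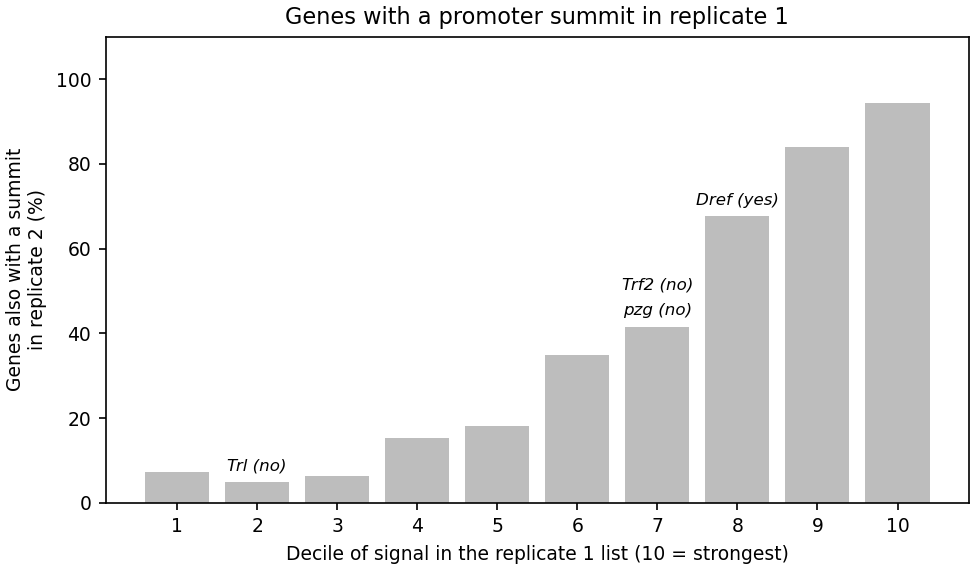
Share of genes with a promoter summit in replicate 1 that also had one in replicate 2 (bars, in percent), by decile of the replicate 1 signal; gene names mark the decile of each member and whether it recurred. Dref (decile 8, 67.7% of genes recurring) recurred, and pzg and Trf2 (decile 7, 41.5%) and Trl (decile 2, 4.92%) did not.

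The ranked lists, which hold the regions before the IDR threshold, show what lay under it. They are permissive: a region lay within 500 bp of an own TSS for 74.4% of all protein-coding genes in replicate 1 and for 62.9% in replicate 2. Chro had a replicate 1 region at +64 with a signal of 50.4 and an IDR of 0.0135, just outside the threshold, and a replicate 2 region at −42 with a signal of 15.6 and an IDR of 0.10. These distances are from the nearest Chro start and do not give the distance to the pooled Chro summit. The replicate 2 region of Chro had a q value of 0.631. M1BP had a replicate 1 region at −56 with a signal of 14.0, a q value of 0.682 and an IDR of 0.841, and no region in replicate 2. For pzg, Trf2 and Trl replicate 2 had no region within 500 bp of any start, even before the threshold. Just inside the threshold was the Trl peak of replicate 1, with an IDR of 0.00491. Trl also had a pooled region at −59 with a signal of 43.4, a q value of 0.456 and an IDR of 0.145, which did not enter the pooled list.

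Motifs were searched on both strands in the window reaching 50 bp to each side of each summit: the DRE (TATCGATA), the M1BP motif (GGTCACACT), the E-box (CANNTG) and its form CAGCTG. The BEAF-32 site was searched as CGATAG, whose letters overlap those of the DRE. For GAGA factor the pentamer was GAGAG and the heptamer GAGAGAG, which contains the pentamer. The TATA box was searched as TATAAA. A match describes the letters in the window and not a bound site. For each member only the strongest summit within 500 bp of an own TSS was counted, which gave 4 summits in the pooled list. None of these 4 had a DRE, which 17.0% of all pooled promoter peaks had. None had the M1BP motif, present in 4.64% of promoter peaks. None had an E-box, the element that Amos binds, which 39.3% of promoter peaks had, or CAGCTG, which 9.79% had. Over the strongest summits, the E-box count became 1 with 100 bp to each side, 1 over the whole peak and 1 in the replicate 1 list. The 39.3% is for 50 bp to each side in the pooled list, and the share in replicate 1 was 38.8%. No share is given for the wider windows. The weaker Chro summit at +299, which was not counted, held 1 E-box and 1 CAGCTG. Pooled summits outside the 500 bp limit also had an E-box in their windows: Dref at +752, pzg at −875, Trf2 at +741 and Trl at −954.

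The Chro window held 1 BEAF-32 site, the one printed above, 36.5 bp from the summit, and 1 match to the TATA box. The latter was centred 18.5 bp downstream of the Chro start at 22878984, not before it. Those motifs were in 31.4% and 8.78% of promoter peaks. The Dref window held 1 GAGA pentamer in each of the 4 lists, and the Trf2 window held the pentamer printed above in the pooled and replicate 1 lists. That motif was in 11.3% of pooled promoter peaks, and the heptamer, in 1.65%, was in no member window. The pzg window held none of the 8 motifs. The Trl window of replicate 1 held 2 E-boxes and 1 TATA box, where 38.8% and 8.75% of the promoter peaks in that list had a match. In flanking windows of the same width, centred 1000 bp away from each pooled summit on either side, there were 3 E-boxes, 1 for pzg and 2 for Trf2, and 1 GAGA pentamer, for Chro.

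The BEAF-32 site of Dref fell outside the 50 bp window. Its centre lay 61.5 bp from the pooled summit, 60.5 bp from that of replicate 1 and 76.5 bp from that of replicate 2, between the summit and the RpL13 start. The count of members with a BEAF-32 site, a DRE or the M1BP motif at the summit, 1 of 4, accordingly became 2 with 100 bp to each side or over the whole peak, and 0 with 25 bp.

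**Figure D4:**
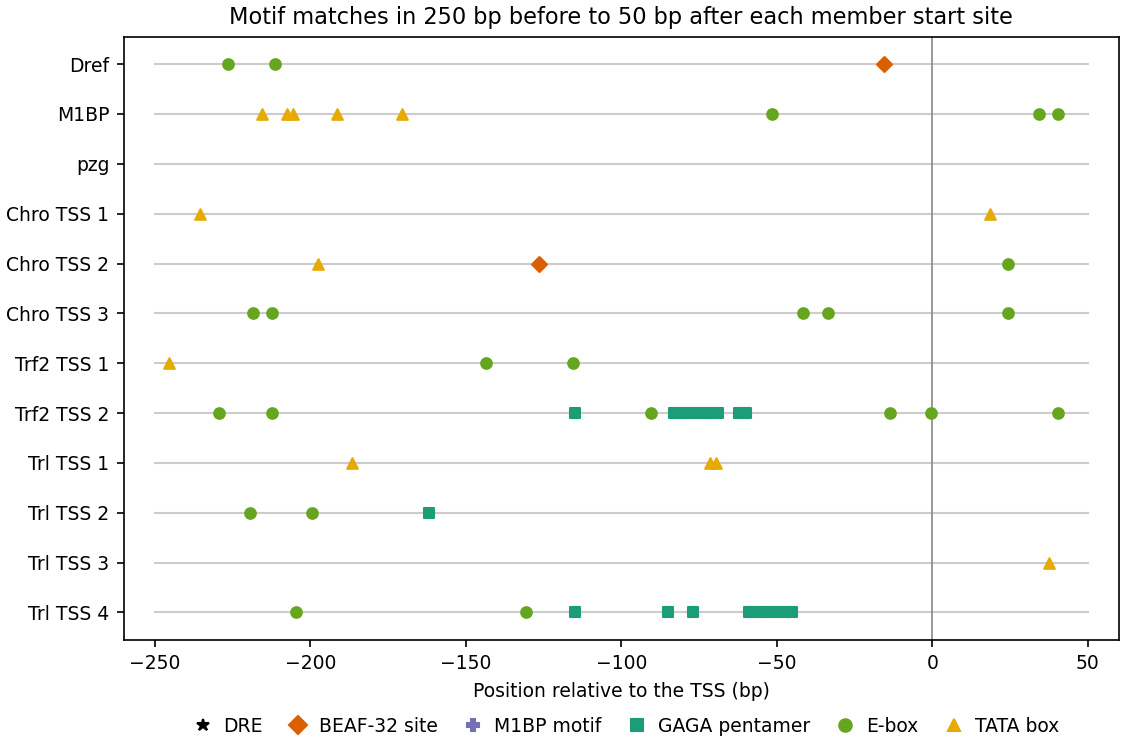
Matches to 6 motifs (symbols) from 250 bp before to 50 bp after each of the 12 annotated starts of the 6 genes, in bp from the TSS, with the starts of a gene numbered from its 5′ end. BEAF-32 sites are at −15.5 in Dref and at −126.5 from Chro TSS 2 (22878768). The Chro summit at +53 is measured from another start, Chro TSS 1 (22878984). The GAGA pentamers crowd before the downstream Trf2 start and the last Trl start, and no DRE or M1BP motif appears.

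The promoters themselves were read in the same way, from 250 bp before to 50 bp after each of the 12 annotated starts of the members and each of the 19607 starts of all genes. The DRE was in none of the members' windows, Dref included, and in 7.99% of all windows. The M1BP motif was in none, M1BP included, and in 5.23% of all. The BEAF-32 site was in 2 of the 12 member windows, 1 of Dref and 1 of Chro, and in 17.8% of all windows. Allowing 1 mismatch, a DRE was found at that place in Dref, 17 bp before the start, and in windows of 2 Chro starts, which is 3 of 12 member windows against 25.1% of all. Windows of neighbouring starts of 1 gene overlap in part.

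The GAGA pentamer was in 3 of the 12 member windows, against 33.2% of all windows. The window of the downstream Trf2 start held 11 overlapping pentamers, and that of the Trl start at 14757336 also held 11, which include the runs printed above; neither start had a summit within 500 bp. The Trl start at 14757962, which had the replicate 1 summit, held 1, and the start of M1BP and the Trl starts at 14761049 and 14757779 held none. The heptamer was in 2 of the 12 windows and in 7.64% of all, with 8 overlapping matches at the Trf2 start and 7 at the Trl start. The upstream Trf2 start, where the summits were, had no pentamer in its window. The E-box was in 8 of the 12 member windows, against 77.9% of all, with no match in the window of pzg, and CAGCTG was in none of the members' windows and in 18.0% of all. TATAAA was in 6 of the 12 member windows, against 42.2% of all. Those windows belonged to 4 members, Chro, Trf2, Trl and M1BP, the last with 5 matches.

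Genes for partners and known targets of these factors were examined as 8 lists with 76 genes in all, of which 55 had a summit within 500 bp of an own TSS in the pooled list. The lists were chosen with earlier results of these data known, and their counts are descriptions to be read against the 37.3% of all protein-coding genes. All 5 genes of the DREF, TRF2 and NURF partners had a pooled summit. They included Iswi, the ATPase of NURF (signal 1556), XNP, a chromatin remodeller of the ATRX type (1050), and Caf1-55, a histone chaperone (340). In replicate 1 they were again 5 of 5, and in replicate 2 they were 4 of 5. Their median percentile in the pooled list was 78.6, and that of the members was 60.8.

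All 3 Chromator partners found in the annotation had a pooled summit: JIL-1, a histone H3 kinase (signal 689), Asator (328) and east (131). Their median percentile was 77.6. With the annotated 5′ end as the only start, 1 of the 3 had a summit. Of the 7 insulator and M1BP partner genes 6 had one, led by BEAF-32 itself (993), Cp190 (556) and the neighbours Ibf1 and Ibf2, which share a peak (536). The exception was gfzf, a partner of M1BP, which like M1BP had no summit. The median percentile of this list was 87.6. The NSL complex, which occupies housekeeping promoters, had 5 of 7, led by nsl1 (1042), MBD-R2 (304) and mof (152), and dgt1 and Rcd1 had none. The other summits were weak: Rcd5 had a signal of 54.8 (q value 0.164), and wds (72.0) was in neither replicate list. Each replicate list held 3 of the 7, against 39.6% and 20.6% of all genes. In both replicate lists at once there were 2 of the 7, against 19.4%. The NSL median percentile was 58.2.

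Of 10 genes for partners of GAGA factor or other GA-repeat binders, 8 had a pooled summit. The strongest were mod(mdg4) (signal 630), Nelf-A, a subunit of the pausing factor NELF (581), and dre4, a subunit of the histone chaperone FACT (177). The genes corto and Ssrp had none, and the median percentile was 59.4. The general core promoter factors had 17 of 25, led by the TFIID subunit genes Taf9 (700) and Taf7 (543) and the neighbours Taf10 and Taf10b, which share a peak (389). No pooled summit was at Trf, TfIIA-S, TfIIEalpha, TfIIFbeta, Taf5, Taf12, NC2beta or Hel89B, and the median percentile of the 17 was 71.9. In replicate 2 these lists held 5 of 10 and 12 of 25, where 20.6% of all genes had a summit.

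Known DREF targets had a pooled summit in 10 of 11 cases, with a median percentile of 88.3. The strongest were mtSSB, a mitochondrial DNA-binding protein (signal 1757), PolA1, a subunit of DNA polymerase alpha (906), and CycA, the cyclin A gene (795); mor was without one. The DRE was in the summit window of 6 of these 10 genes, PCNA, PolA1, PolA2, CycA, Tbp and Myb, against 17.0% of promoter peaks, and in 0 of the 4 member windows. Such targets were first recognised in part by their DREs, so the motif count is no independent feature of the list. Of 9 GAGA factor targets, 2 had a pooled summit, Kr (signal 90.6, percentile 38.8) and Act5C (52.5, percentile 11.0, q value 0.207). The median percentile of the pair was 24.9, and Hsp26, Hsp27, Ubx, en, eve, ftz and Abd-B had none. In replicate 1 this list had 5 of 9, against 39.6% of all genes, and in replicate 2 it had 0 of 9, against 20.6%.

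**Figure D5:**
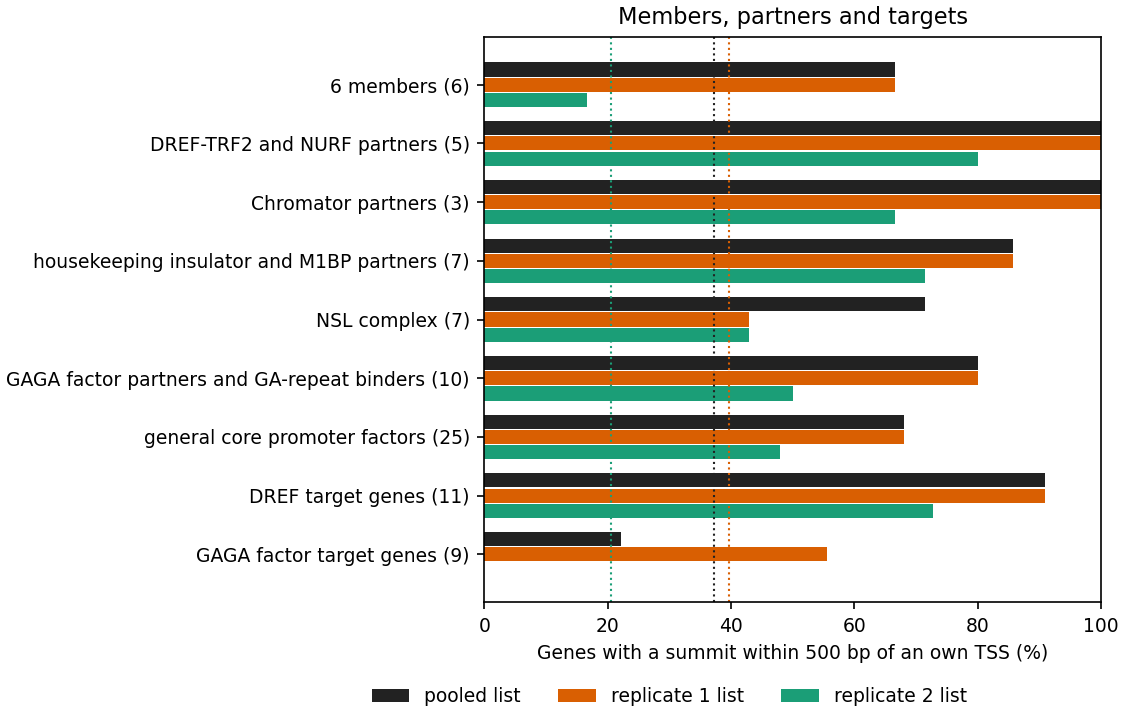
Share of genes with a summit within 500 bp of an own TSS (percent) for the 6 members and for each partner or target list, with the number of genes in brackets, in the pooled, replicate 1 and replicate 2 lists (colours); dotted lines give the share of all protein-coding genes, 37.3, 39.6 and 20.6. The members reach 66.7 in the pooled list and 16.7 in replicate 2, whereas the DREF targets are at 90.9 and 72.7.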

How the data were processed

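The data were peak lists from 2 biological replicates. Positions are on dm6, per the file headers and labels; aligner and peak caller: not given in the sources used here. Signal, as deposited, is the authors' peak value, scaled within its reads; the deposited q value and global IDR are given as −log10 by the authors. The per-input values of the ranked lists (32 columns) were not used. Summits were set against every annotated transcript start of 13945 protein-coding genes (Ensembl release 115) with Python 3.11.15 and pandas 2.3.3; coordinates are 1-based. The summit distance and motif search were tested on simulated data. No statistical test was made.

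The members and lists were chosen with earlier results of these data known. Of the list symbols, 75 matched as listed, 2 through older names, and 4 were not found. Named are the members, the genes sharing their peaks, the 2 genes closest to a member in percentile in both replicates, and in each list the 3 genes with the highest pooled signal and those without a summit. The DREF targets with a DRE, and genes near members that share no peak, were named after their values were seen. The promoter windows and the DRE search with 1 mismatch were added after the data were seen. Alternatives were the conservative and single replicate lists, stronger peaks, other distances, starts and windows.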

Additional observations from a re-analysis of the deposited data

How the results depend on the processing

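The count of members with a summit at their own TSS was 4 in the pooled list and 1 in the conservative list, and ranged from 1 (without replicate 1, that is in the replicate 2 list) to 4 (without replicate 2). It was 3 at 250 bp (33.3% of all genes), 5 at 1000 bp (40.4%) and 4 with the annotated 5′ end as the only start (35.4%). At 1000 bp Trl was added through the summit at −954, which was 25 bp from the Mgat4a TSS. The count was 3 with peaks above the median signal (23.7% of all genes) and with q values of 0.05 or less (32.7%). With the peak over the TSS itself it was also 3 (30.1%). The median percentile ranged from 42.5 to 62.9 without 1 replicate, and the median distance from 61 to 176.5 bp. The count of member summits with a DRE, BEAF-32 site or M1BP motif was 1, and became 0 with 25 bp, 2 with 100 bp, 2 over the whole peak, 0 in the conservative list and 0 without either replicate. No share of all promoter peaks is given for this combined count. The partner and target genes with a summit numbered 55, and 38 to 56 over the alternatives, of which the q value limit was added after the data were seen; of the 64 values of single lists, 53 stayed within 1.5 times. The cause of these shifts was not tested. Unknown depth limits what a missing summit shows. No paired analysis was possible because there is 1 group.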
